A study of Mus musculus with 4 samples.

Results

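Fatty acid oxidation in mouse heart was described through 35 genes, out of 25045 genes with a row in the deposited counts. The members were the named enzymes, carriers and regulators of the mitochondrial and peroxisomal pathway, chosen by gene name. The rows of each gene's RefSeq transcripts were summed to 1 count per gene and library. RNA came from 4 libraries, 1 per group, each a pool of 3 hearts at 12 weeks of age. The HCM (hypertrophic cardiomyopathy) pair set cMyBP-CΔC10mut hearts (the dC10mut library), which carry a transgene of the 25bp variant of MYBPC3, against nontransgenic hearts (NTG), with the strain given as C57BL/6. The DCM (dilated cardiomyopathy) pair set hearts of cMyBP-C(t/t) mice (tt) against those of control animals (control), with the strain given as FvB/N. MYBPC3 encodes cardiac myosin binding protein C of the sarcomere. The promoter of the transgene and the sex of the animals are not given in the sources used here. Since each group is a single library, ratios within a pair could not be checked over replicates, and their 95% intervals describe counting error alone.

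Heart muscle draws most of its ATP from long-chain fatty acids. The carnitine shuttle brings acyl groups across the mitochondrial membranes, and each turn of beta-oxidation then runs through an acyl-CoA dehydrogenase, a hydratase, a hydroxyacyl-CoA dehydrogenase and a thiolase. Electrons from the dehydrogenases pass through electron transfer flavoprotein to ubiquinone. Peroxisomes shorten very long and branched chains, thioesterases release free acids from acyl-CoA, malonyl-CoA inhibits the entry step, and PPAR alpha is the nuclear receptor best known for switching these genes on. Lower expression of the pathway is a widely described feature of hypertrophied and failing hearts.

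The promoters of Hadha, Hadh and Ucp3 are shown here as examples. The first is shared with a member that held no count, and the second belongs to the member called higher in dC10mut. The third belongs to 1 of 5 members that were lower in the mutant library of both pairs, with intervals that included equality. Each is the 250 bases before the start site from RefSeq (GRCm38.p6), 5′ to 3′ along the gene, at chr5:30154981-30155230 (minus strand), chr3:131272102-131272351 (minus strand) and chr7:100472741-100472990 (plus strand). Capitals mark AGGTCA, the hexamer that nuclear receptors of the PPAR and ERR families bind, in either orientation.
Hadha upstream: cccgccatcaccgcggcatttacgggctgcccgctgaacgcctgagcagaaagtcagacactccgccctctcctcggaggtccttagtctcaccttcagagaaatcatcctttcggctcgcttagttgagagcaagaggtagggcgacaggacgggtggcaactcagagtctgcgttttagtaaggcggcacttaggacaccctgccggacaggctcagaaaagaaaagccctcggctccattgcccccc
Hadh upstream: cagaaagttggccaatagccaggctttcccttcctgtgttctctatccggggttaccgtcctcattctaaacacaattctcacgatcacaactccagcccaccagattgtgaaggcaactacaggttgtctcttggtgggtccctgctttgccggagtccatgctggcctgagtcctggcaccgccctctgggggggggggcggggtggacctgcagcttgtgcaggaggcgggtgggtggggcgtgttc
Ucp3 upstream: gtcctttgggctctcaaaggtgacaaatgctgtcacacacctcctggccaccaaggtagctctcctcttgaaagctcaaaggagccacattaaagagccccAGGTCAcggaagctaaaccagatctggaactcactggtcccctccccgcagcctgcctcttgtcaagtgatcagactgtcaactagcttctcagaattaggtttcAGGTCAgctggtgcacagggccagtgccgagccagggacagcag
Ucp3 holds the hexamer at 2 places, starting 149 and 44 bases upstream, and the other sequences do not hold it in this window. Of 28 members with a promoter in the table, 5 (17.9%) hold it, namely Acadm, Acadvl, Cpt1a, Echs1 and Ucp3, against 14.0% of all 32851 promoters. The PPAR element, a direct repeat of the hexamer with 1 base between, was found in 0 of the 28 and in 0.0335% of all promoters, and the ERR element TCAAGGTCA, which contains the hexamer, in 0 and in 0.387%. Both strands were searched for these exact letters, and a match or its absence is a description of the window only.

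The number of transcript rows of a gene went with its count. Of the 35 members, 29 had 1 row and 6 had several, and those 6 were at or near 0 in every library. Etfb, Hadhb, Acaa1a and Ppara held 0 counts in all 4 libraries. Eci2 held 0, 2, 0 and 0 counts in NTG, dC10mut, control and tt, and Mlycd held 2, 4, 0 and 3 counts in NTG, dC10mut, control and tt. A count of 0 allows up to 3 counts, which is 15.6 to 18.7 CPM by library (CPM, the count scaled to a common library size by TMM, the trimmed mean of M-values). Across all genes, 4.96% of those with several rows reached 10 counts over the 4 libraries, against 23.3% of those with 1 row. Values near 0 in these 6 members are therefore not read as absence of expression.

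The contrast was clearest between Hadha and Hadhb, which encode the alpha and beta subunits of the mitochondrial trifunctional protein. Hadha has 1 row and held 183, 231, 179 and 255 counts in NTG, dC10mut, control and tt, whereas Hadhb has 3 rows and held 0 in every library. The genes lie head to head on chromosome 5 with 272 bases between their start sites, so 228 of the 250 bases shown for Hadha are also upstream of Hadhb on the other strand. A like contrast held for electron transfer flavoprotein. Its alpha subunit gene Etfa (1 row) held 62, 104, 90 and 113 counts in NTG, dC10mut, control and tt, while Etfb (2 rows), for the beta subunit, held 0.

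Some members share sequence with other genes, so that the counting could have split or dropped their reads. Cpt1b, the muscle form of the entry enzyme carnitine palmitoyltransferase 1, has 1 row but shares 2744 bp of exon on the same strand with Gm44502, and held 0, 0, 1 and 1 counts in NTG, dC10mut, control and tt. Of its 31-base words, 93.7% occur in transcripts of other genes. The share was 68.0% for Etfb (Gm45233), 62.9% for Hadhb (mainly Gm13910), 43.8% for Acaa1a (Acaa1b), 39.2% and 37.3% for Acot1 and Acot2, mainly in each other, and 27.9% for Acad10 (Acad12). Counts of these members are uncertain. Lower shares were found for Acad9 (19.1%), Acadm (11.8%), Eci2 (11.8%) and Etfa (11.4%), and the remaining members had at most 4.52%. The part of these lower shares in the counts was not tested.

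The library kit keeps the strand, but how strand was set when reads were counted is not given in the sources used here. Rows that face an abundant heart gene held far more than that gene's own row in some cases and fewer in others. Cryab held 739 to 1038 counts per library, and the facing Hspb2 held 8 over the 4 libraries. Ckm, the muscle creatine kinase gene, held 290 to 432 counts per library, and A930016O22Rik on the other strand held 5781 to 7272. Pdha1, for a subunit of pyruvate dehydrogenase, held 121 to 228 counts and the facing Map3k15 11101 to 14012. Xist, which has 2 rows, held 0, 8, 0 and 14 counts in NTG, dC10mut, control and tt, and the facing Tsix 0, 147, 0 and 159. Of the 30 genes with the most counts, 19 faced an exon of another gene. Which strand the rows mainly hold was not tested. A member's count may thus stand for reads of either strand, and its ratio need not be that of its mRNA: the log2 ratio of dC10mut against NTG was 0.41 for Pdha1 and -0.33 for Map3k15. Among members, Acad11 shares 479 bp with Ackr4, whose row held 200, 240, 203 and 224 counts against 20, 36, 27 and 24 counts in NTG, dC10mut, control and tt for Acad11. The rows facing Acadvl (Dvl2), Hadha (Garem2) and Acaa1a (Myd88) held 0 to 4 counts per library.

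The library totals were between 170543 and 187365 counts, so that 1 count was 5.19 to 6.23 CPM. Among cardiomyocyte markers with 1 row, Myl2 held 2405 to 3520 counts per library and Actc1 906 to 1403. Tnnt2 and Myl3, with several rows, were at 0 and Myh6 held 0 or 1. The 12 cardiomyocyte markers, of which 7 to 10 had a count, together held 4595 counts in NTG and 6724 in dC10mut, with 5352 in control and 4978 in tt, and their part in the members' ratios was not tested. In such bulk samples, fewer cells of a type and less RNA per cell cannot be told apart. White adipocyte markers (6 genes), liver markers (4 genes) and Ucp1 of brown fat were at 0 in all libraries. Among sex markers, Tsix held 147 counts in dC10mut, 159 in tt and 0 in NTG and control. Xist, which Tsix faces on the other strand, held 8 in dC10mut, 14 in tt and 0 in NTG and control. Ddx3y held 14 in control, 1 in NTG and 0 in the mutants, so sex and genotype cannot be told apart in either pair.

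Together the 35 genes held 1708 counts in NTG, which was 1.00% of the library (exact Clopper-Pearson 95% interval 0.955 to 1.05%). The dC10mut library held 2341 (1.25%, 1.20 to 1.30%), the control library 1899 (1.08%, 1.03 to 1.12%) and the tt library 2173 (1.17%, 1.12 to 1.22%). The share was higher in each mutant library than in its control library. Genes facing an exon on the other strand made up 61.4% of NTG counts and 58.0% of dC10mut counts. For the DCM pair the values were 59.2% (control) and 56.7% (tt). The share of all remaining genes together thus also rose in both pairs. Whether the members' rise went beyond that was not tested. Per kilobase of transcript, the highest means over the 4 libraries were those of Acot13 (952 CPM per kb), Ech1 (880), Acadl (772), Acaa2 (550) and Acadm (529). This scale allows for length only. Strand, number of rows and shared sequence may also bear on the counts, so the order need not be that of mRNA levels. The order differed between libraries: Acot13 was first in dC10mut and control, Ech1 in NTG (950 CPM per kb) and Acadl in tt (883 CPM per kb). The counts of shuttle genes were lower, with Crat at 96.4, Slc25a20 at 51.3 and Cpt2 at 42.6 CPM per kb, and the count of Cpt1b is uncertain.

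**Figure D1:**
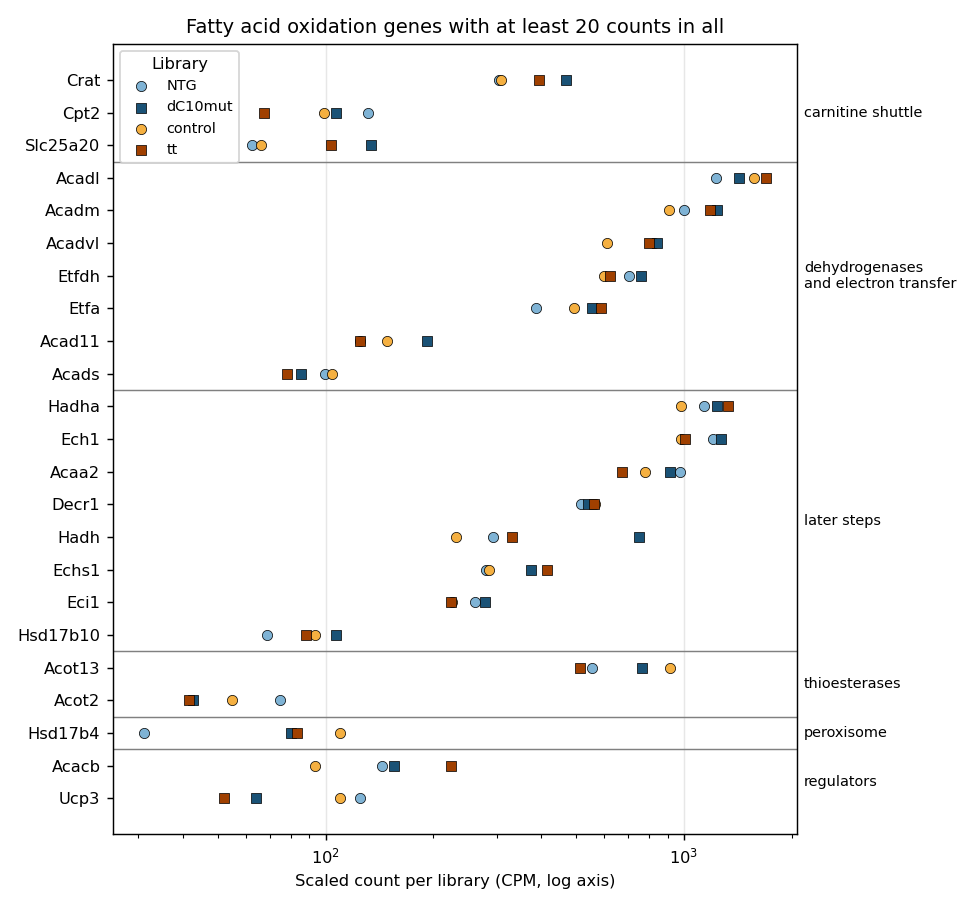
Scaled counts per library (CPM, log axis) of the 23 members with at least 20 counts over the 4 libraries, grouped by step. Each point is 1 library: Hadh stands apart in dC10mut at 748 CPM, and Acot13 is highest in control at 913 CPM.

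The HCM pair compares hearts carrying the variant transgene with nontransgenic hearts. A gene was compared where the pair held at least 10 counts, and it was called where its scaled count differed at least 2-fold and the interval excluded equality. Of 24 members compared, 1 was called higher in dC10mut (Hadh) and 0 lower. Of all 2866 genes compared, 4.26% were called higher and 5.69% lower (9.94% in either direction), so the members' count was near the background. With library totals in place of TMM the called genes split into 147 higher and 131 lower, against 122 and 163. The ratio was positive in 19 of the 24 members and in 49.7% of all genes compared, with a median log2 ratio of 0.16 against 0.00. Among genes with 1 row and no overlapping exon, the class of 20 of these members, 56.9% of all genes and 15 members were positive. The median in this class was 0.13 over all genes and 0.16 over the members. Genes facing an exon on the other strand, here any annotated exon whether or not its gene has a row, had a median of -0.16. Members compared were also shorter, with a median length of 2107.5 bp against 2709.5 bp over all genes. In the class with 1 row and no overlap, genes from 1000 to under 2000 bp had a median of 0.31, against 0.21 over 9 members. From 2000 to under 3000 bp it was 0.05, against 0.08 over 8 members. Under 1000 bp it was 0.35, against 0.54 over 2 members. At 5000 bp or more it was -0.02, against 0.11 for 1 member. The part of length in the members' ratios was not tested. Intervals lay above equality in 5 members (Hadh, Crat, Etfa, Acadm and Acot13) and below it in 0, against 7.29% and 11.6% of all genes. That share goes with depth: among genes with 1 row, no overlap, at least 100 counts in the pair and a length in the members' range, 19.4% lay above and 16.1% below, and 4 of the 10 members in this class lay above.

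The DCM pair compares cMyBP-C(t/t) hearts with their controls. Of 25 members compared, 1 was called higher in tt (Acacb) and 0 lower, where 6.04% of all 3078 genes were called higher and 3.51% lower. Ratios were positive in 13 members (15 with DESeq2 size factors) and in 48.0% of all genes. The members' median log2 ratio was 0.04 against -0.06 over all genes, and -0.01 over members that face no exon on the other strand. Intervals lay above equality in 5 members (Acacb, Echs1, Hadha, Acadvl and Acadm) and below it in 1 (Acot13), against 9.55% and 9.78% of all genes. In the class with at least 100 counts, 18.5% of genes lay above and 17.0% below, and of its 10 members 2 lay above and 1 below.

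**Figure D2:**
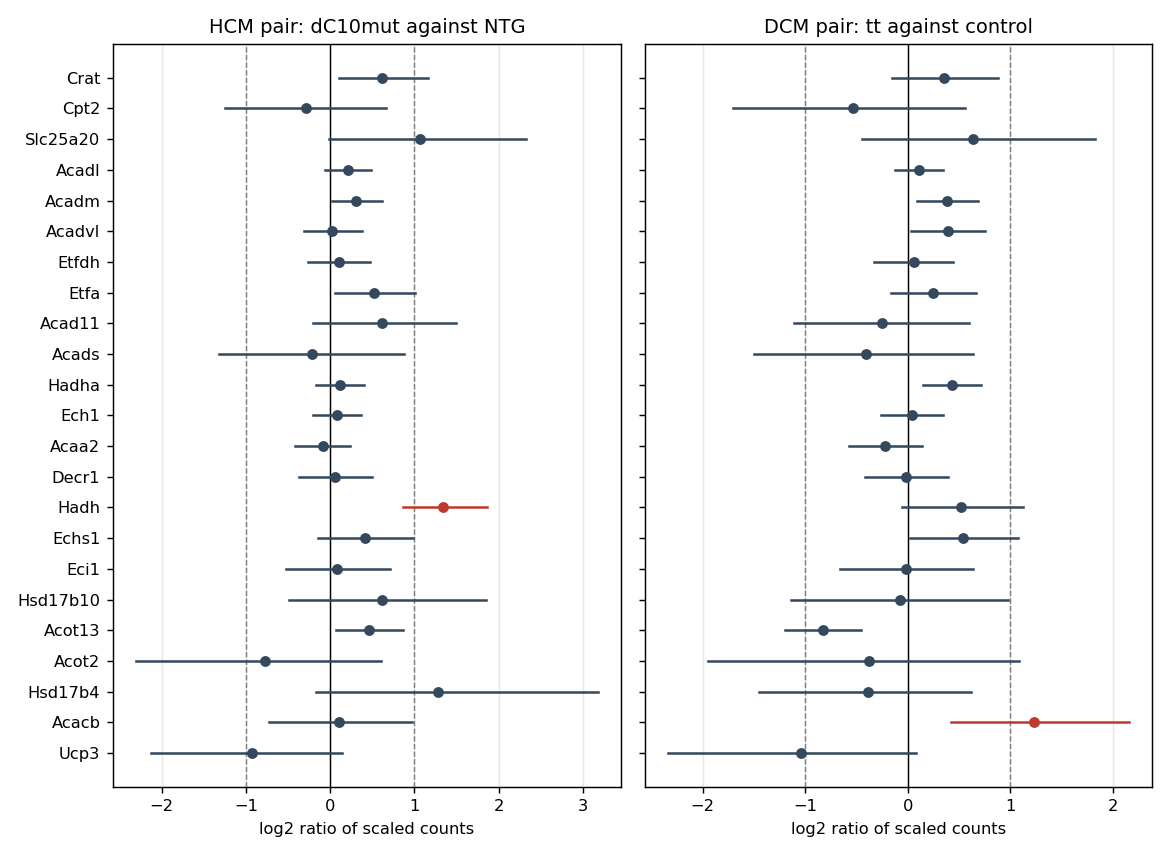
Log2 ratio of scaled counts with its 95% counting interval for the 23 members with at least 20 counts over the 4 libraries, in the HCM pair and the DCM pair. Dashed lines mark a 2-fold difference, and the called members, Hadh at 1.34 (HCM) and Acacb at 1.23 (DCM), are in red.

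**Figure D3:**
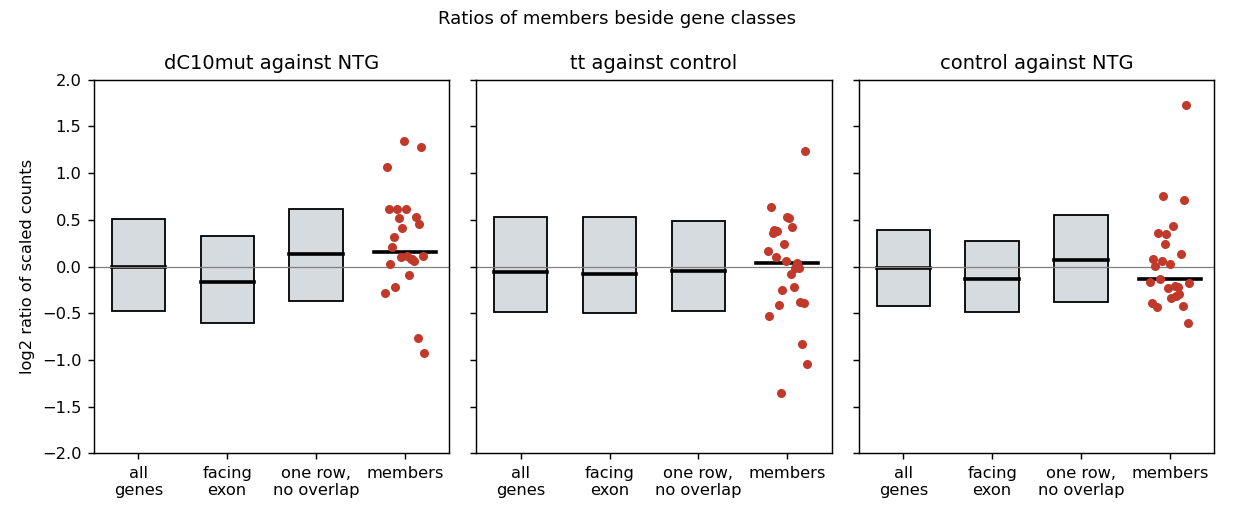
Log2 ratios in the HCM pair, the DCM pair and between the control libraries. Boxes span the quartiles with the median for all genes compared, genes facing an exon on the other strand, and genes with 1 row and no overlap, and points are single members: in the HCM pair the members' median of 0.16 lies near the 0.13 of genes with 1 row and no overlap.

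In the carnitine shuttle, the genes with enough counts in both pairs were Crat, Slc25a20 and Cpt2. Crat encodes carnitine acetyltransferase, which interconverts acetyl-CoA and acetylcarnitine. It held 49 counts in NTG (306 CPM) and 88 in dC10mut (470 CPM), with 56 in control (308 CPM) and 76 in tt (395 CPM), so that each mutant library lay above both control libraries. The log2 ratio of Crat in the HCM pair was 0.62 (0.10 to 1.16), and it was 0.36 (-0.16 to 0.88) in the DCM pair. Slc25a20, the carnitine-acylcarnitine translocase of the inner membrane, had the same order at lower depth, with 10, 25, 12 and 20 counts in NTG, dC10mut, control and tt. The log2 ratios of Slc25a20 were 1.06 (-0.01 to 2.32) and 0.63 (-0.45 to 1.82), where the HCM pair is given first and the DCM pair second, as in all such sentences that follow. With library totals or DESeq2 size factors the HCM interval began at 0.08 or 0.01, and the gene was then called. Cpt2, which returns acyl groups to CoA inside the mitochondrion, held 21, 20, 18 and 13 counts in NTG, dC10mut, control and tt. Its log2 ratios, -0.29 (-1.25 to 0.66) and -0.53 (-1.70 to 0.56), were negative with intervals that included equality. Cpt1a, the liver-type entry enzyme, held 3 to 6 counts per library, with a log2 ratio of 0.17 (-1.79 to 2.23) in the DCM pair. Summed over the shuttle, the libraries of the HCM pair went from 85 to 136 counts at a log2 ratio of 0.45 (0.05 to 0.86), which was 0.19 (-0.46 to 0.86) without Crat. In the DCM pair the sums went from 92 to 116 counts at 0.25 (-0.16 to 0.66), which was 0.07 (-0.62 to 0.76) without Crat.

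Among the acyl-CoA dehydrogenases, ratios of the enzymes with the most counts were small. Acadm, for the medium-chain enzyme, held 160 counts in NTG (998 CPM) and 232 in dC10mut (1239 CPM), with 165 in control (907 CPM) and 228 in tt (1184 CPM). Both mutant libraries lay above both control libraries, with log2 ratios of 0.31 (0.02 to 0.61) and 0.38 (0.09 to 0.68). Acadl, the long-chain enzyme, had the most counts of all members over the 4 libraries, with 197, 266, 286 and 326 counts in NTG, dC10mut, control and tt. Its log2 ratios were 0.21 (-0.06 to 0.48) and 0.11 (-0.13 to 0.34), and the control libraries differed by 0.36 (0.09 to 0.63) for control against NTG. Acadvl, the very-long-chain enzyme of the inner membrane, held 132 counts in NTG (823 CPM) and 157 in dC10mut (838 CPM), with 111 in control (610 CPM) and 154 in tt (800 CPM). The control library was the lowest, and the log2 ratios of Acadvl were 0.03 (-0.32 to 0.37) and 0.39 (0.03 to 0.76). Acads, the short-chain enzyme, held 15 to 19 counts per library and Acad11 20 to 36, with intervals that included equality in both pairs. Acad9, which also serves complex I assembly, held 3 to 8 counts per library, with a log2 ratio of -1.35 (-4.05 to 0.56) in the DCM pair, and Acad10 held 1 to 2.

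Electron transfer was represented by Etfa and Etfdh in these counts. For Etfa, NTG was the lowest library at 387 CPM, followed by control with 495, dC10mut with 555 and tt with 587. Its log2 ratios were 0.52 (0.06 to 1.00) and 0.24 (-0.17 to 0.66), and the difference between these ratios was 0.27 (-0.33 to 0.88). Etfdh, the ubiquinone reductase that takes electrons from the flavoprotein, held 113, 142, 109 and 120 counts in NTG, dC10mut, control and tt, with log2 ratios of 0.11 (-0.26 to 0.48) and 0.06 (-0.33 to 0.44). Dehydrogenases and electron transfer together went from 705 to 958 counts in the HCM pair at a log2 ratio of 0.22 (0.08 to 0.36), and from 817 to 985 counts in the DCM pair at 0.19 (0.05 to 0.32).

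Hadh, the hydroxyacyl-CoA dehydrogenase of medium and short chains (chromosome 3, 131233419 to 131272101), held 47 counts in NTG (293 CPM) and 140 in dC10mut (748 CPM), with 42 in control (231 CPM) and 64 in tt (332 CPM). The dC10mut library was high, and the other libraries lay between 231 and 332 CPM. Its log2 ratio was 1.34 (0.86 to 1.86) in the HCM pair, a 2.54-fold difference, 0.52 (-0.06 to 1.12) in the DCM pair and -0.34 (-0.98 to 0.29) for control against NTG. Echs1, the short-chain enoyl-CoA hydratase of the step before, held 45, 70, 52 and 80 counts in NTG, dC10mut, control and tt. It was higher in both mutant libraries at log2 ratios of 0.41 (-0.15 to 0.99) and 0.53 (0.02 to 1.07). Hsd17b10, a hydroxyacyl-CoA dehydrogenase gene on the X chromosome, held 11 to 20 counts per library, and its intervals included equality in both pairs.

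Hadha, the alpha subunit of the trifunctional protein, held 1141, 1234, 984 and 1324 CPM in NTG, dC10mut, control and tt. The tt library was the highest, and the log2 ratios were 0.11 (-0.17 to 0.40) and 0.43 (0.15 to 0.71). Acaa2, the mitochondrial thiolase that ends each turn, was lower in both mutant libraries within counting error. It held 156, 171, 142 and 129 counts in NTG, dC10mut, control and tt, with log2 ratios of -0.09 (-0.41 to 0.23) and -0.22 (-0.58 to 0.13). The enzymes for unsaturated chains had flat ratios. Ech1, a dienoyl-CoA isomerase, held 193, 238, 178 and 194 counts in NTG, dC10mut, control and tt, with log2 ratios of 0.08 (-0.20 to 0.36) and 0.04 (-0.26 to 0.34). Decr1, the dienoyl-CoA reductase, held 83 to 108 counts per library and Eci1, the enoyl-CoA isomerase, 41 to 52, at log2 ratios between -0.01 and 0.08. The later steps together went from 760 to 1025 counts in the HCM pair at 0.21 (0.07 to 0.35), and at 0.09 (-0.06 to 0.23) without Hadh. In the DCM pair they went from 754 to 890 counts at 0.16 (0.02 to 0.30), and at 0.13 (-0.01 to 0.28) without Hadh, so that 1 gene decided whether either interval included equality.

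**Figure D4:**
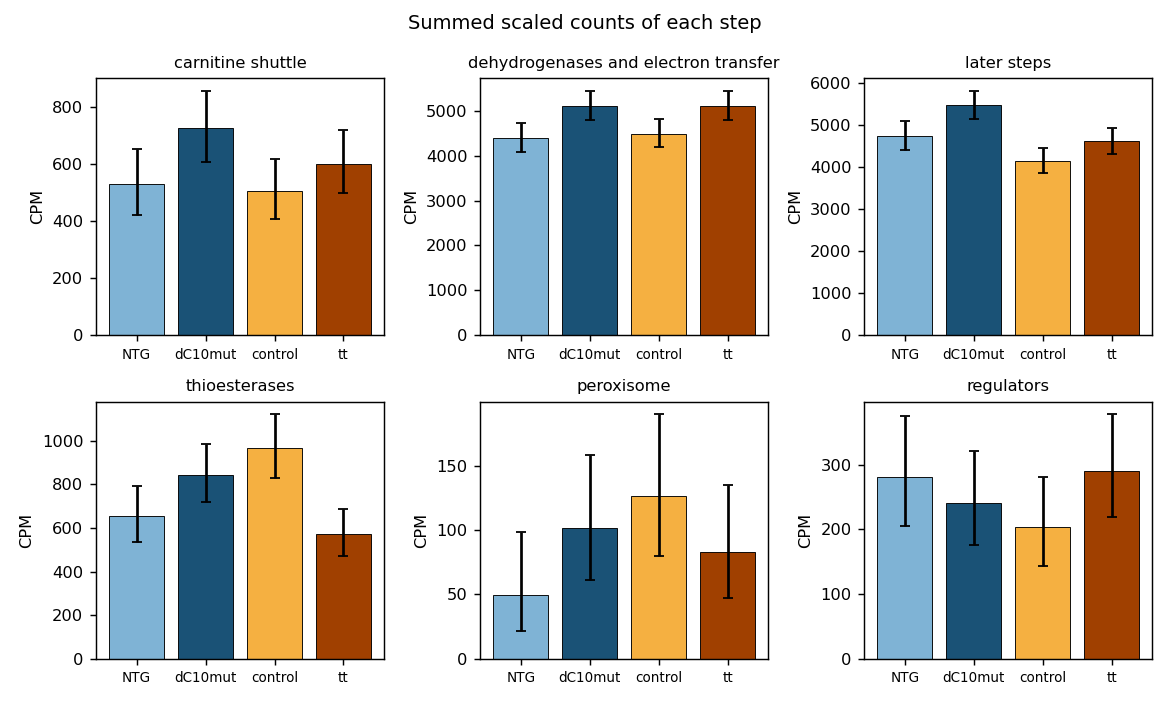
Summed scaled counts of the members in each step (CPM, bars from 0) in the 4 libraries, with exact Poisson 95% intervals. Dehydrogenases with electron transfer and the later steps hold most of the counts, and thioesterases are highest in the control library.

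The summed thioesterases had log2 ratios of 0.36 (0.00 to 0.74) and -0.76 (-1.12 to -0.41), and most of their counts were of Acot13. The gene encodes a mitochondrial acyl-CoA thioesterase (chromosome 13, 24817955 to 24831489) and held 89 counts in NTG (555 CPM) and 143 in dC10mut (764 CPM), with 166 in control (913 CPM) and 99 in tt (514 CPM). The order from low to high was tt, NTG, dC10mut and control. Its log2 ratios were 0.46 (0.07 to 0.86) in the HCM pair, -0.82 (-1.20 to -0.46) in the DCM pair and 0.71 (0.34 to 1.11) for control against NTG, a comparison that shares a library with each pair. Acot13 is also short, at 721 bp, and among genes under 1000 bp with 1 row and no overlap the median log2 ratio was 0.35 (HCM) and -0.40 (DCM). The part of length in its ratios was not tested. Acot2, of the mitochondrial matrix, held 8 to 12 counts per library, and its cytosolic copy Acot1 held 0 to 7, with intervals that included equality where they could be compared. Without Acot13 the sum of the step had log2 ratios of -0.31 (-1.44 to 0.79) and 0.05 (-1.32 to 1.45).

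The peroxisomal members held few counts. Hsd17b4, the D-bifunctional protein, held 5, 15, 20 and 16 counts in NTG, dC10mut, control and tt, and NTG was low while the other libraries lay close together. Its log2 ratios were 1.29 (-0.17 to 3.18) and -0.39 (-1.45 to 0.62). Ehhadh, the L-bifunctional protein, held 0 to 4 counts per library. The summed peroxisomal members had log2 ratios of 0.98 (-0.23 to 2.43) and -0.59 (-1.62 to 0.38).

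Acacb was the called member of the DCM pair. It encodes acetyl-CoA carboxylase beta, which makes malonyl-CoA at the outer mitochondrial membrane (chromosome 5, 114146321 to 114250761). Acacb held 23 counts in NTG (143 CPM) and 29 in dC10mut (155 CPM), with 17 in control (93.5 CPM) and 43 in tt (223 CPM), so that tt was the highest library and control the lowest. Its log2 ratio was 1.23 (0.42 to 2.16) in the DCM pair, a 2.35-fold difference, and 0.11 (-0.73 to 0.97) in the HCM pair. Ucp3, a mitochondrial uncoupling protein of muscle and a known PPAR alpha target (chromosome 7, 100472991 to 100486432), held 20 counts in NTG (125 CPM) and 12 in dC10mut (64.1 CPM), with 20 in control (110 CPM) and 10 in tt (51.9 CPM). Both mutant libraries were below both control libraries, at log2 ratios of -0.93 (-2.13 to 0.14) and -1.04 (-2.34 to 0.08), and neither interval excluded equality. Mlycd, which removes malonyl-CoA, and Ppara have several rows and were at or near 0. The summed regulators had log2 ratios of -0.22 (-0.85 to 0.41) and 0.51 (-0.11 to 1.16).

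Beyond the members, 71 other genes were listed. They were further peroxisomal genes, related mitochondrial enzymes, other thioesterases, and genes of fatty acid supply, activation and control. In the HCM pair 16 could be compared, of which 0 were called higher and 1 lower (4.26% and 5.69% of all genes), with a median log2 ratio of 0.10. The gene called lower was Pdk4, the kinase that turns pyruvate dehydrogenase off and a known PPAR target, with 78 counts in NTG and 28 in dC10mut at -1.68 (-2.38 to -1.06). In the DCM pair 17 could be compared, of which 2 were called higher and 1 lower (6.04% and 3.51% of all genes), with a median of -0.14. Pdk4 was again the gene called lower, with 113 counts in control and 46 in tt at -1.37 (-1.91 to -0.87). The genes called higher were Pex14, of peroxisomal protein import, with 12 and 46 counts at 1.81 (0.92 to 2.91), and Mmut, methylmalonyl-CoA mutase, with 15 and 39 at 1.27 (0.40 to 2.26). Pex14 and Mmut both face an exon on the other strand, as did 1343 of the 3078 genes compared in the DCM pair. The row facing Mmut, Cenpq, held 1, 4, 2 and 5 counts in NTG, dC10mut, control and tt.

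The pairs share no library, so their ratios could be set against each other. Of 23 members compared in both pairs, 12 were positive in both, 5 negative in both and 6 positive in the HCM pair and negative in the DCM pair. The difference of the log2 ratios (HCM minus DCM) was called where it reached 1 and its counting interval excluded 0, which held for 5.67% of 2575 genes in the higher and 7.57% in the lower direction (13.2% in either). It was called in 2 members, Acot13 at 1.28 (0.76 to 1.81) and Acacb at -1.12 (-2.24 to -0.01). For Hadh the difference was 0.82 (0.09 to 1.56), under the size required, and for Hsd17b4 1.68 (-0.01 to 3.36). With library totals Acacb was not called, at -1.04 (-2.16 to 0.08), and Hsd17b4 was, at 1.76 (0.07 to 3.44).

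**Figure D5:**
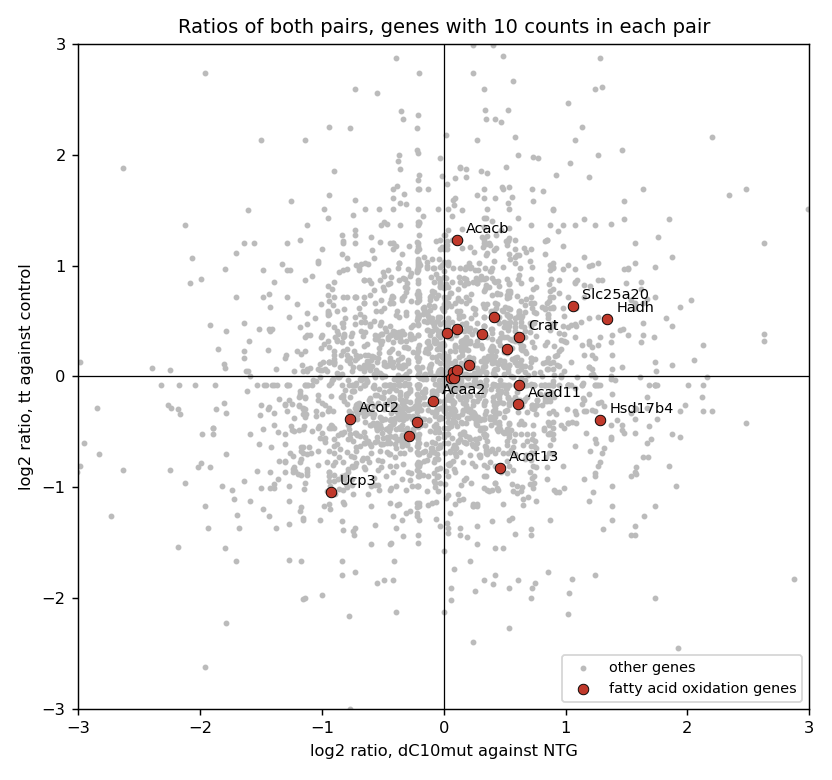
Log2 ratio in the DCM pair against that in the HCM pair for 2575 genes compared in both, with the members marked, and 19 genes outside the axes. Hadh lies to the right, Acacb above and Acot13 below the centre of the cloud, and Ucp3 is lower in both pairs.

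A difference common to both mutants was fitted with edgeR (quasi-likelihood, pair as block, 1 residual degree of freedom). Of 2911 genes tested, 1 (0.0344%), Tsix, passed an adjusted p of 0.05. Tsix is among the sex markers given above, and a difference of sex cannot be told apart from genotype here. Of the 23 members tested 0 passed it, and 2 had an unadjusted p under 0.05 by edgeR, against 203 of all genes, while DESeq2 gave 0 members under that p. The 2 members were Hadh, at a log2 difference of 0.96 (edgeR adjusted p = 0.643), and Ucp3, at -1.01 (edgeR adjusted p = 0.699). Each had the same direction in 2 of 2 pairs, which adds no support, since the fit that picked them used these same pairs.

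The control libraries differ in strain label, and each is also the base of 1 pair. Of 25 members compared, 1 was called higher in control and 0 lower, against 3.17% and 3.45% of all 2839 genes (6.62% in either direction). The called member was Hsd17b4, with 5 and 20 counts at a log2 ratio of 1.73 (0.36 to 3.59), and 0 members were called where at least 30 counts were asked for. Library totals split the called genes into 125 higher and 65 lower, against 90 and 98, and moved the median of all genes by 0.13. The members' median was -0.14 against -0.02 over all genes, a gap of -0.12 under each scaling. Intervals lay above equality in 3 members (Hsd17b4, Acot13 and Acadl) and below it in 1 (Acadvl), against 5.14% and 9.12% of all genes. In the class with at least 100 counts, 12.7% of genes lay above and 19.5% below, and of its 8 members 2 lay above and 0 below.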

How the data were processed

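RNA was made from 4 pools of mouse hearts with TRIzol and Aurum columns and a stranded poly(A) kit, per the labels' protocols. The authors deposited raw counts per RefSeq transcript, and STAR, HTSeq and the mouse build mm10 are named without versions in the submitters' processing notes. The strand and overlap settings of the counting are not given in the sources used here. All 41449 rows were matched to gene symbols through RefSeq identifiers (41247 matched, and the other 202 held 1.94% of counts) and summed per gene, and exons were placed on GENCODE M21. Totals ran from 170543 to 187365 counts per library, and intervals and floors cover counting error only.

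Counts were scaled by TMM (edgeR 4.0.16, R 4.3.3). Ratios within a pair were taken on the log2 scale after adding 0.5 counts and an exact Clopper-Pearson interval of the conditional binomial share (95%, scipy 1.17.1), for genes with at least 10 counts over the pair. A call needed at least 2-fold and an interval excluding equality. The difference common to both mutants used edgeR's quasi-likelihood test with pair as a block, at least 20 counts over the 4 libraries and Benjamini-Hochberg adjustment at 0.05. On simulated counts with 200 genes changed 4-fold, the ratio rule recovered 153 in the HCM pair (2866 genes, 58 unchanged genes called), and the common test recovered 131 (2911 genes, 6 unchanged genes called). The counts for the ratio rule were Poisson draws without differences between animals or libraries, so those figures hold for counting error alone. Alternatives were library totals or DESeq2 1.42.0 size factors, no filter or 30 counts, a prior of 2, coding transcripts only, and genes without an exon on the other strand.

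All 35 members are accounted for. Other pathway genes are named where called, up to 4 per list and pair by size of the ratio, and markers by list. The members and lists were chosen with earlier results of these data known.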

Additional observations from a re-analysis of the deposited data

Results flagged for a closer look

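Acot13, the mitochondrial acyl-CoA thioesterase gene, had log2 ratios on opposite sides of equality in the pairs, with 0.46 for dC10mut against NTG and -0.82 for tt against control. With 1 library per group, the difference was not tested over replicates.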

How the results depend on the processing

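Of the recomputed values that answer a comparison, 166 were labelled as unchanged and 19 as moved, under a rule that allowed sizeable shifts. The HCM shuttle sum was labelled as unchanged without genes that face an exon on the other strand, which left out Crat. It was then 0.19 (-0.46 to 0.86), against 0.45 (0.05 to 0.86). Some values near 0 changed sign: the members' median in the DCM pair was -0.01 without genes that face an exon on the other strand, against 0.04, and the shuttle sum between the control libraries was 0.06 with library totals, against -0.07. Members called higher in the HCM pair numbered 2 with library totals and 2 with DESeq2 size factors, against 1, through Slc25a20. With library totals, 65 genes were called lower between the control libraries, against 98, and the difference between the pairs was called in 2 members in the higher and 0 in the lower direction, against 1 and 1. Without genes that face an exon on the other strand, in the HCM pair 64 genes were called lower (163), in the DCM pair 92 were called higher and 53 lower (186 and 108), and 40 lower between the control libraries (98). With at least 30 counts, fewer genes were compared: the HCM pair had 56 called higher and 97 lower, the DCM pair 104 and 55, and there were 32 and 52 between the control libraries, where 0 members were called higher against 1. Without Acot13 the log2 ratio of the thioesterase sum was -0.31 (HCM), 0.053 (DCM) and -0.83 (control libraries), and without Acadl that of the dehydrogenases was -0.12 between the control libraries. The common test called 0 genes with DESeq2, 17 with library totals and 11 without a filter, against 1, and the cause was not tested. The comparison of pairs under other scalings, the gene classes set beside the members and the sums without 1 member were chosen after seeing the data. Without the pair as a block the common test called 1 gene, and the labels carry no replicate numbers. At 5.19 to 6.23 CPM per count, differences under 2-fold were not detectable in members with few counts. Some larger ones also had intervals that included equality, such as Hsd17b4 at 2.44-fold in the HCM pair.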

Other observations

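Markers of other cell types were sparse in these libraries, and their part in the members' ratios was not tested. Endothelial markers (3 of 5 with a count in each library) summed to 69 counts in NTG and 45 in dC10mut, with 59 in control and 31 in tt. Macrophage markers (3 or 4 of 5) summed to 14, 40, 37 and 10 in the same order, of which Lyz2 alone held 6, 28, 28 and 5. Fibroblast markers (3 or 4 of 5) summed to 16, 9, 24 and 11 in that order. Atrial markers rested on Nppa alone, at 9, 22, 60 and 16. Skeletal muscle markers summed to 3, 0, 1 and 0 and brown adipocyte markers to 7, 7, 8 and 4. Erythroid markers were at 0 in all libraries.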
